A study of Mus musculus with 6 samples.

Results

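The 10 genes described here encode the inflammasome, the interleukin-1 (IL-1) family cytokines tied to it and the classic inflammatory cytokines IL-6 and TNF. They were chosen by symbol: the ligands Il1a, Il1b and Il18, the receptor antagonist Il1rn, the inflammasome genes Nlrp3, Pycard, Casp1 and Gsdmd, and the cytokines Il6 and Tnf. All 10 were found among the 48897 genes of the deposited table. Messenger RNA was sequenced from epididymal white adipose tissue of wild-type C57BL/6 mice, 35 weeks old, with 2 libraries in each of 3 groups. This visceral fat lies beside the epididymis. Diets began at 6 weeks of age. F-L is taken to be the group kept on a low-fat diet (10% of calories from fat) and F-H the group kept on a high-fat diet (60%). F-H-L is taken to be the cycled group, fed high fat for 9 weeks and then switched weekly, low fat first, for 10 rounds of 2 weeks. Only the letters of the codes link them to the diets. The series asked how such cycles affect metabolic homeostasis. The labels do not say whether the 2 libraries of a group are different mice, and the p-values rest on a spread from library to library that may be technical.

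The inflammasome is a protein complex that myeloid cells assemble when they sense damage. NLRP3 is its sensor, the ASC protein encoded by Pycard is the adaptor, and caspase-1 is the protease that matures IL-1 beta and IL-18. Caspase-1 also cuts gasdermin D, encoded by Gsdmd, which then forms pores in the cell membrane. The antagonist encoded by Il1rn occupies the IL-1 receptor without signalling. In obese fat, macrophages are a known source of IL-1 beta, TNF and the antagonist.

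Total counts ran from 41091012 to 49230161 per library. The libraries differed in tissue makeup. The 19 epididymis epithelium genes took 2.0% of counts in F-L replicate 1 and 0.437% in F-L replicate 2, against 0.000333% and 0.0443% with high fat, while F-H-L was at 0.191% and 0.165%, and 10 of the 19 were at 0 in F-H replicate 1. The 20 adipocyte genes, which check the tissue label, summed to 3450 CPM (counts scaled to the TMM-adjusted library size) in F-L replicate 1, 21300 in F-L replicate 2 and 18000 to 42800 in the other libraries, with none at 0. The summed level of 20 macrophage genes was 578 and 1180 CPM in the F-L libraries. With high fat it reached 21900 and 11400 CPM, and F-H-L stood at 2530 and 2020 CPM, with none of the 20 genes at 0. The 14 testis germ cell genes took 0.088% and 0.815% of counts in F-L and 0.00359% to 0.0177% in the other libraries. These levels move with the results below, and their part in them was not tested. In bulk tissue, fewer cells of a type and less RNA per cell cannot be told apart.

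In the F-H libraries, the inflammasome genes, Tnf and the IL-1 antagonist stood on average at several times their F-L level, while Il1a, Il1b and Il6 stayed below 1 RPKM in all 6 libraries. None of these differences passed the test at an adjusted p of 0.05. Levels are given as RPKM (reads scaled to gene length and to the library total), a scale on which genes can be compared. In both F-H libraries the order from the top was Casp1, Gsdmd, Il1rn and Pycard, while Il1a and Il6 held the lowest ranks there. Casp1 ran from 0.676 to 69.1 RPKM over the 6 libraries and Il1rn from 0 to 33.5 RPKM.

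**Figure D1:**
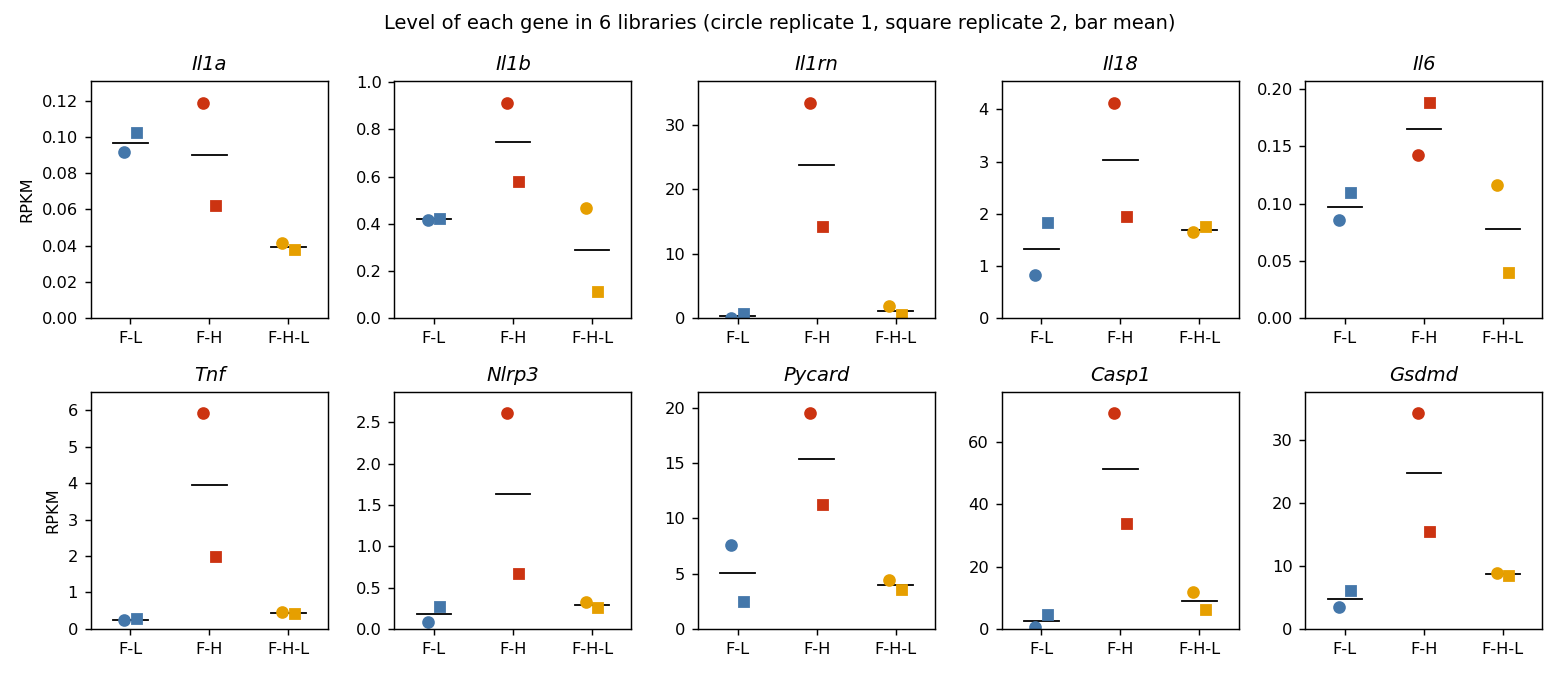
RPKM (y axis, starting at 0 in each panel) of the 10 genes in the 3 diet groups (x axis). Circles are replicate 1, squares replicate 2 and bars the mean of both. F-H replicate 1 was above F-H replicate 2 in every gene but Il6, and both F-H-L libraries sat below both F-H libraries in all 10 genes.

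Among the ligands, Il1b, the gene of IL-1 beta (Entrez 16176, mm10 chr2:129363842-129371170), had 45 and 54 counts in F-L, 119 and 64 counts in F-H, and 56 and 13 counts in F-H-L. As a level this was 0.414 and 0.422 RPKM, 0.913 and 0.577 RPKM, and 0.467 and 0.111 RPKM. Both F-H libraries were above all others, and the low value of F-H-L replicate 2 made F-H-L overlap F-L. In F-H against F-L the log2 fold change of Il1b was 1.07 ± 0.88 (SE, 2 libraries a group, edgeR adjusted p = 0.471). The value turned to -0.82 when libraries were scaled to their adipocyte genes. That scaling also moved the median log2 fold change of all genes from -0.12 to -2.03, so lower values with it are not particular to these genes. Il1a, the gene of IL-1 alpha (Entrez 16175, chr2:129299609-129310877), had 16 and 21 counts in F-L, 25 and 11 counts in F-H, and 8 and 7 counts in F-H-L. F-H overlapped F-L, and F-H-L was below both. The log2 fold change of Il1a was 0.15 ± 0.80 in F-H against F-L (edgeR adjusted p = 0.922), with a sign that turned in 4 alternative fits, and -1.03 ± 0.82 in F-H-L against F-L (adjusted p = 0.495). Per annotation in GENCODE M21, exons of Il1b share 25 bases with the antisense gene Il1bos and exons of Il1a share 222 bases with Gm14023 on the opposite strand. As the strand setting is not given in the sources used here, reads from such pairs cannot be told apart there.

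Il18, whose product drives interferon gamma in lymphocytes (Entrez 16173, chr9:50554705-50581841), was at 0.823 and 1.83 RPKM in F-L, 4.13 and 1.94 RPKM in F-H, and 1.65 and 1.74 RPKM in F-H-L. F-H replicate 1 stood above the other 5 libraries, and F-H replicate 2 was close to F-L replicate 2 and to F-H-L. Its log2 fold change in F-H against F-L was 1.46 ± 0.74 (edgeR adjusted p = 0.256), which was 0.07 with adipocyte scaling and 0.81 when F-H replicate 1 was left out. Per length, Il18 was above Il1b in every library, by a ratio of 1.99 to 15.6.

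Il1rn (Entrez 16181, chr2:24336860-24351491), the antagonist, had 0 and 83 counts in F-L, 4644 and 1679 counts in F-H, and 232 and 62 counts in F-H-L. Its levels were 0 and 0.61 RPKM in F-L, 33.5 and 14.2 RPKM in F-H, and 1.82 and 0.499 RPKM in F-H-L. The count of 0 in F-L replicate 1 allows a level of up to 0.0259 RPKM, the worth of 3 counts, for counting error only. Both F-H libraries stood far above the other 4. In F-H against F-L the log2 fold change was 6.57 ± 1.93 (edgeR adjusted p = 0.104), and it was 5.58 without F-L replicate 1 (adjusted p = 0.027). Without F-L replicate 2 the only low-fat library left has 0 counts, so that fit gives no usable size. In F-H-L against F-H the log2 fold change was -4.38 ± 1.74 (adjusted p = 0.472).

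The genes of the antagonist and of IL-1 beta stood in a different proportion in the 3 groups. The ratio of Il1rn to Il1b, as RPKM over RPKM, was 0 and 1.44 for F-L, 36.7 and 24.7 for F-H, and 3.89 and 4.48 for F-H-L. The groups did not overlap, with F-L lowest, F-H-L next and F-H highest. The step from F-L to F-H-L rests on few counts. F-L replicate 1 had 0 counts of Il1rn, and F-H-L replicate 2 had 13 counts of Il1b. In F-H-L replicate 2, Il1rn itself was at 0.499 RPKM, below the 0.61 RPKM of F-L replicate 2. The ratio was not tested and is a description. Il18bp, the secreted binding protein that captures IL-18, followed no such order: its ratio to Il18 was 6.07 and 1.07 for F-L, 4.07 and 1.68 for F-H, and 2.01 and 1.36 for F-H-L, and the groups overlapped.

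**Figure D2:**
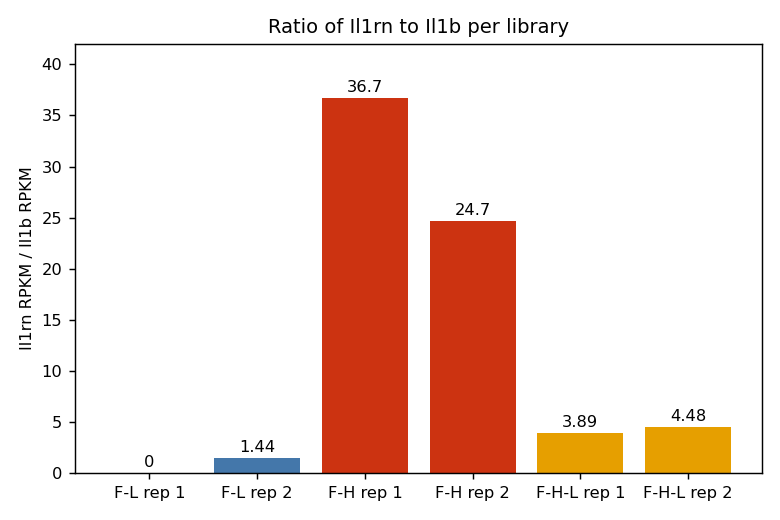
Ratio of Il1rn RPKM to Il1b RPKM (y axis, linear from 0) in each of the 6 libraries (x axis). Bars are single libraries. The ratio was 24.7 and 36.7 in F-H and at most 4.48 elsewhere.

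In the machinery, Casp1 (Entrez 12362, chr9:5298517-5307281), the protease, was at 0.676 and 4.50 RPKM in F-L, 69.1 and 33.5 RPKM in F-H, and 11.7 and 5.95 RPKM in F-H-L. The 3 groups did not overlap. Its log2 fold change was 4.59 ± 1.02 in F-H against F-L (edgeR adjusted p = 0.0767), 2.04 ± 0.91 in F-H-L against F-L (adjusted p = 0.297) and -2.55 ± 0.92 in F-H-L against F-H (adjusted p = 0.448). The low-fat libraries differed from each other by 6.22-fold in CPM, so the size of this change rests on which of them is used. The log2 fold change in F-H against F-L was 3.8 without F-L replicate 1 and 6.53 without F-L replicate 2. Gsdmd (Entrez 69146, chr15:75862143-75867408), the pore former, was at 3.52 and 6.05 RPKM in F-L, 34.2 and 15.3 RPKM in F-H, and 8.93 and 8.43 RPKM in F-H-L. The groups did not overlap here either. Gsdmd had the smallest p of the 9 tested members in F-H against F-L, with a log2 fold change of 2.63 ± 0.53 (edgeR adjusted p = 0.0717). With adipocyte scaling it was 1.07, with F-H replicate 1 left out 1.94, and 2.33 without F-L replicate 1.

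Nlrp3 (Entrez 216799, chr11:59541569-59566956), the sensor, was at 0.0896 and 0.269 RPKM in F-L, 2.61 and 0.667 RPKM in F-H, and 0.325 and 0.256 RPKM in F-H-L. F-H replicate 1 was 4.18-fold above F-H replicate 2 in CPM, the widest gap between F-H libraries among the 10 genes. Both F-H libraries were above the other 4, and F-H-L replicate 2 was below F-L replicate 2. The log2 fold change in F-H against F-L was 3.47 ± 1.02 (edgeR adjusted p = 0.104) and 2.16 without F-H replicate 1. The sensor was the least abundant of the 4 machinery genes per length in every library, with Casp1 over Nlrp3 at 7.54 and 16.7 for F-L, 26.5 and 50.3 for F-H, and 35.9 and 23.2 for F-H-L. Pycard (Entrez 66824, chr7:127991373-127993867), the adaptor, was at 7.63 and 2.42 RPKM in F-L, 19.5 and 11.2 RPKM in F-H, and 4.41 and 3.52 RPKM in F-H-L. F-H was highest, and F-H-L lay between the low-fat libraries. In F-L replicate 1, the library with the most epididymis RNA, Pycard was the most abundant of the 10 genes, 11.3 times Casp1 per length, against 0.282 to 0.591 times in the other 5 libraries. Whether this comes from epididymal tissue was not tested. Its log2 fold change in F-H against F-L was 1.83 ± 0.67 (edgeR adjusted p = 0.148), 2.95 without F-L replicate 1 (adjusted p = 0.0189) and -0.55 with adipocyte scaling. Exons of Pycard share 485 bases with Gm45205 on the opposite strand.

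Of the classic cytokines, Tnf (Entrez 21926, chr17:35199367-35202007) was at 0.250 and 0.263 RPKM in F-L, 5.92 and 1.98 RPKM in F-H, and 0.467 and 0.398 RPKM in F-H-L. The groups did not overlap, and the libraries within F-L and within F-H-L were close. In F-H against F-L its log2 fold change was 4.19 ± 0.86 (edgeR adjusted p = 0.0736), which was 2.41 with adipocyte scaling, 3.17 when F-H replicate 1 was left out, and 4.27 without F-L replicate 2. Tnf is the gene that DESeq2 called in both comparisons with F-H: it was lower in F-H-L than in F-H by a log2 fold change of -3.26 (DESeq2 adjusted p = 0.00147), where edgeR gave -3.18 ± 0.82 (adjusted p = 0.349), or -2.1 without F-H replicate 1. In F-H-L against F-L its log2 fold change was 1.0 ± 0.78 (edgeR adjusted p = 0.482), and it turned to -1.90 with adipocyte scaling. Il6 (Entrez 16193, chr5:30013114-30019975), which fat, stromal and myeloid cells make, had 4 and 6 counts in F-L, 8 and 9 counts in F-H, and 6 and 2 counts in F-H-L. Il6 was the 1 gene that did not pass the low-count filter. With no filter its log2 fold change in F-H against F-L was 1.01 ± 2.09 (edgeR adjusted p = 0.854), so a difference in Il6 was not detectable at this depth.

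Read against all genes, these differences are wide but imprecise. In F-H against F-L, edgeR called none of the 9 tested genes under an adjusted p of 0.05, against 0.866% of the 22289 genes tested (0.615% higher and 0.251% lower). Their adjusted p ran from 0.0717 to 0.922, and 6 of them (Il1rn, Nlrp3, Casp1, Pycard, Gsdmd and Tnf) were higher at an unadjusted p under 0.05, against 12.5% of all genes. DESeq2 called 5 of 9 higher (Il1rn, Nlrp3, Casp1, Gsdmd and Tnf), against 9.84% of all genes. The median log2 fold change was 2.63 over the 9 genes and -0.12 over all genes. Of all 10 genes, 9 were higher in both F-H libraries than in both F-L libraries by CPM (Il1a overlapped), against 27% of genes tested. A fit with 1 library left out, from any group, leaves 1 library in that group with no spread of its own. What edgeR called of the 9 in such fits is therefore not weighed.

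The F-H-L comparisons set diet cycling beside each continuous diet. Against F-L, edgeR called none of the 9 genes and 0% of all genes, none of the 9 had an unadjusted p under 0.05, and DESeq2 called 0 of 9. Of all genes, 8.32% were higher and 9.51% lower at an unadjusted p under 0.05, 3975 in all, and DESeq2 called 11% (2.65% higher and 8.32% lower). By CPM, both F-H-L libraries were above both F-L libraries for 6 of 10 genes (Il1rn, Il18, Nlrp3, Casp1, Gsdmd and Tnf), against 29.8% of genes tested, and below for 1, Il1a, against 23.8%. By RPKM, which uses no TMM factor, Il1rn, Il18 and Nlrp3 overlapped. The median log2 fold change was 0.97 over the 9 genes and -0.09 over all genes. Adipocyte scaling turned Il18, Nlrp3, Gsdmd and Tnf negative, and it moved the median of all genes to -3.06. Against F-H, edgeR called none of the 9 genes and 0% of all genes, where 2362 of all genes had an unadjusted p under 0.05 and DESeq2 called 5.37%. At an unadjusted p under 0.05, 6 of the 9 were lower (Il1rn, Nlrp3, Casp1, Pycard, Gsdmd and Tnf), against 5.68% of all genes. DESeq2 called 1, Tnf, against 3.2% lower among all genes. All 10 genes were lower in both F-H-L libraries than in both F-H libraries, against 25.6% of genes tested lower and 35.6% higher, and the median log2 fold change of the 9 was -1.94 beside 0.1 over all genes. F-H serves as a side in 2 of these comparisons and F-L in 2, so the comparisons are not independent.

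**Figure D3:**
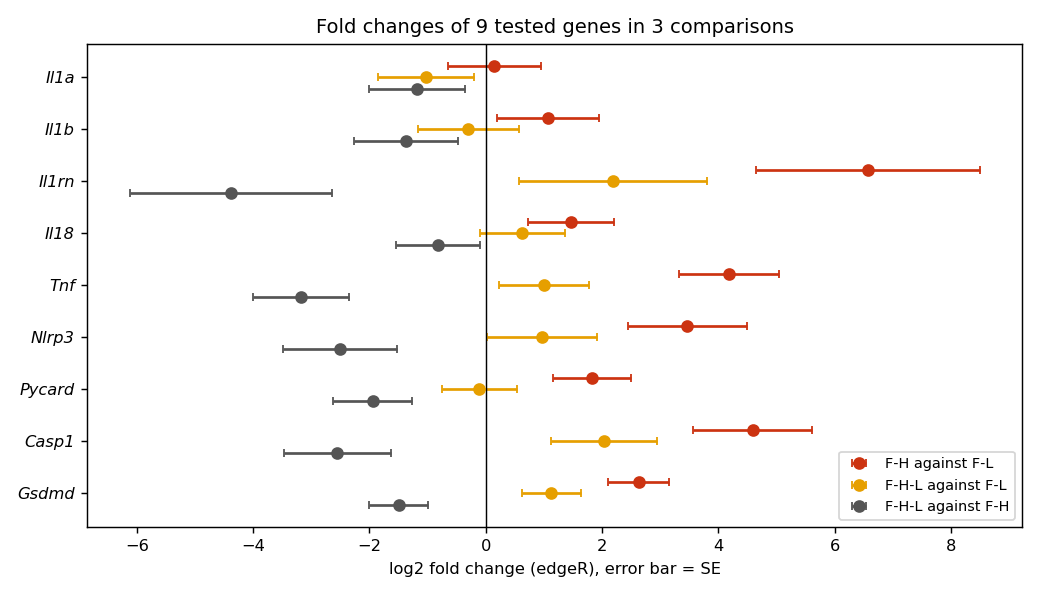
log2 fold change from edgeR (x axis) with its SE (bars) for the 9 genes that passed the low-count filter (y axis), in 3 comparisons shown by colour. F-H against F-L is right of 0 for every gene and F-H-L against F-H left of 0. With adipocyte scaling Il1a, Il1b and Pycard change side in F-H against F-L, and Il18, Nlrp3, Gsdmd and Tnf in F-H-L against F-L. That scaling moved the median of all genes to -2.03 in F-H against F-L and to -3.06 in F-H-L against F-L.

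On a scale set by the macrophage genes, Il1rn and, by a narrow margin, Casp1 were higher in both F-H libraries than in both F-L libraries. Most of the other genes were lower. For each library the log2(CPM + 0.1) of a gene was set against the mean of the 20 macrophage genes, whose mean was 3.95 and 4.74 for F-L, 8.73 and 7.76 for F-H, and 5.97 and 5.58 for F-H-L. On this relative log2 scale Il1b was at -3.79 and -4.65 for F-L, -7.29 and -7.04 for F-H, and -5.51 and -6.80 for F-H-L. Of all 22289 genes tested, 98.8% had a lower mean in F-H than in F-L on this scale, so the lower values of Il1b are those of nearly any gene. Il1rn was higher in F-H, with -7.27 and -4.07 for F-L, -2.06 and -2.42 for F-H, and -3.54 and -4.85 for F-H-L. The -7.27 of F-L replicate 1 is set by the pseudocount, since Il1rn had 0 counts there. Tnf was at -5.0 and -5.81 for F-L, -5.31 and -5.99 for F-H, and -6.13 and -5.85 for F-H-L, and F-H overlapped F-L. Casp1 was at -3.88 and -2.16 for F-L and at -1.91 and -2.07 for F-H, so F-H replicate 2 was only just above F-L replicate 2. Between these 2 libraries Casp1 rose from 5.89 to 51.5 CPM. The mean log2 CPM of 11 lipid-associated macrophage genes rose further, from 5.39 to 9.79. On a scale set by those 11 genes, Casp1 in F-H replicate 2 falls below F-L replicate 2. Of the 10 genes, 8 had a lower mean relative level in F-H than in F-L, and 7 were lower in both libraries, against 96% of all genes. Il1rn and Casp1 were higher in both, against 0.467% of all genes. In F-H-L against F-L the relative mean was lower for 8 of 10 genes, against 89.8% of all genes, and 7 were lower and 0 higher in both libraries, against 71.4% and 2.93%. In F-H-L against F-H it was lower for 3 of 10, against 1.7% of all genes. There 6 were higher in both libraries, against 94.1%, and 1, Il1rn, was lower in both, against 0.83%. These are descriptions with no test, and none of the 10 genes is on the macrophage list.

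**Figure D4:**
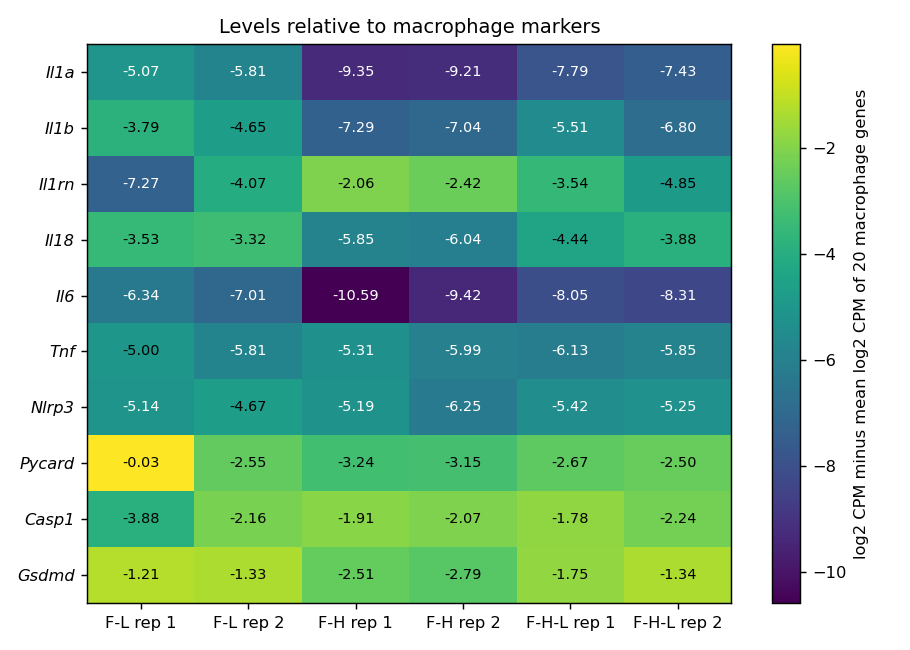
Level of each of the 10 genes (rows) relative to macrophage markers in each of the 6 libraries (columns), as log2(CPM + 0.1) minus the mean of 20 macrophage genes, by colour and printed value. Il1rn is highest in F-H (-2.06 and -2.42), while Il1a, Il1b, Il18, Il6, Pycard and Gsdmd are lowest there. The mean of 98.8% of all genes is lower in F-H than in F-L on this scale.

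Markers of other cell types moved as well. Neutrophils also make IL-1 beta, and their 15 genes summed to 740 and 389 CPM in F-L, to 48.6 and 35.4 CPM in F-H, and to 100 and 49.8 CPM in F-H-L. The sum was highest in F-L replicate 1 and lowest in F-H replicate 2, while the mean log2 CPM of the 15 genes ran only from -0.75 to 0.44, and the defining gene Ly6g was at 0 in F-L replicate 2 and in F-H-L replicate 2. The 17 T and NK cell genes summed to 22 and 14 CPM in F-L, to 386 and 45.9 CPM in F-H, and to 49.4 and 47.3 CPM in F-H-L, with none at 0. Mast cell genes, 10 in number, summed to 49.5 and 81.9 CPM in F-L, to 262 and 438 CPM in F-H, and to 80.5 and 97.2 CPM in F-H-L. The 10 dendritic cell genes summed to 40.9 and 91.1 CPM in F-L, to 338 and 161 CPM in F-H, and to 123 CPM in each F-H-L library. The 14 stromal progenitor genes summed to 1340 and 2680 CPM in F-L, to 6660 and 8770 CPM in F-H, and to 5490 and 5670 CPM in F-H-L. F-H was the highest group in these 3 lists, and none of their genes was at 0. The 10 B cell genes summed to 9100 CPM in F-H replicate 1 and to 232 to 1480 CPM in the other 5 libraries. F-H replicate 1, the highest library for each of the 10 genes but Il6, was thus also the highest in lymphocyte RNA. It was the highest in macrophage genes too, at 21900 CPM. The part of these cells in the results was not tested.

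Promoters are shown to compare the antagonist gene Il1rn, the ligand gene Il1b and the near-silent Il6 with genes higher in F-H. Each is the 250 bases before a RefSeq start site in GRCm38.p6, 5′ to 3′ on the gene's strand. Of the 10 genes, 9 matched an entry, with 12 start sites. Il1rn lies at chr2:24336610-24336859 on the plus strand, Il1b at chr2:129371140-129371389 on the minus strand, Il6 at chr5:30012864-30013113 on the plus strand, Nlrp3 at chr11:59541319-59541568 on the plus strand and Tnf at chr17:35202008-35202257 on the minus strand. Capitals mark matches, on either strand, to the NF-kB consensus, to the AP-1 motif TGANTCA, to the TATA motif TATAAA or to the ETS motif GAGGAA. Il1rn and Nlrp3 have more than 1 start site, and only 1 window of each is printed. The windows of Il1rn left out hold none of these motifs. The Nlrp3 window left out holds GAGGAA and no match to the NF-kB consensus.
Il1rn: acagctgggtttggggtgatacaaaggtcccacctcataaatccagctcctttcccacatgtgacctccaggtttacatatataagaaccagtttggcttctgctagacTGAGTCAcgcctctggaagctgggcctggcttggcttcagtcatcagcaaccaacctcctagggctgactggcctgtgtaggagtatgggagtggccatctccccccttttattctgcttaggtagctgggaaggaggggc
Il1b: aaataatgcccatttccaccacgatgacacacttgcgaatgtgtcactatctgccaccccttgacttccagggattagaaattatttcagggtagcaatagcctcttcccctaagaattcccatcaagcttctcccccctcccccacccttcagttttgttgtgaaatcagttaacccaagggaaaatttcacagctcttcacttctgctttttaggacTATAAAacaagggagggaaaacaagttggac
Il6: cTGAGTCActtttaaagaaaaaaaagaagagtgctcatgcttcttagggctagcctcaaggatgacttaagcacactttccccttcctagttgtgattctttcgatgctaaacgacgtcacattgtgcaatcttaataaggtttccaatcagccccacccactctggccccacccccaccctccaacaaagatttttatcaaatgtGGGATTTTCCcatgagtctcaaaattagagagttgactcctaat
Nlrp3: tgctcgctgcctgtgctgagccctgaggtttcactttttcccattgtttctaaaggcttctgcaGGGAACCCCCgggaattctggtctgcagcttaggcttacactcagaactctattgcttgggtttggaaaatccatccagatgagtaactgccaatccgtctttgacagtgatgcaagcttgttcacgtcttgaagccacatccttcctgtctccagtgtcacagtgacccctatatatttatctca
Tnf: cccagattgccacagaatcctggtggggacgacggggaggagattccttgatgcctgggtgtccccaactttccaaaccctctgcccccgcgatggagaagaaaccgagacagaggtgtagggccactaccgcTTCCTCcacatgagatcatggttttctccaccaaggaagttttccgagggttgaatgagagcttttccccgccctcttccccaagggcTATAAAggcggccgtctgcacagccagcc
The NF-kB consensus was found before Il6, 44 to 35 bases ahead of the start, and before 1 start of Nlrp3, which makes 2 of 12 start sites against 7.25% of all 32851. The AP-1 motif was found at 3 of 12 start sites, those of Il1rn, Il1a and Il6, against 6.75% of all. TATAAA was found at 4, those of Il1a, Il1b, Il18 and Tnf, against 12.4% of all, and GAGGAA at 5, against 23.3% of all. So Il6, at 2 to 9 counts a library, holds the NF-kB letters, and Il1rn does not hold them in this window. A match describes the letters and is not a site.

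The other genes of the pathway were described from 5 lists. Of the inflammasome list, 29 of 29 found genes were tested, and in F-H against F-L 3 rose (P2rx7, P2rx4 and Ninj1) and 0 fell by edgeR, with a median log2 fold change of 2.12. At an unadjusted p under 0.05, 19 of the 29 were higher, and DESeq2 called 17 higher. Of all genes, edgeR called 0.615% higher, 12.5% were higher at an unadjusted p under 0.05 and DESeq2 called 9.84% higher. The median over all genes was -0.12. These shares also stand beside the lists below. P2rx7, the ATP-gated channel that triggers NLRP3, was at 1.35 and 1.64 RPKM in F-L, 15.9 and 8.18 RPKM in F-H, and 2.49 and 2.34 RPKM in F-H-L (log2 fold change in F-H against F-L 3.26 ± 0.44, edgeR adjusted p = 0.049). The related ATP receptor P2rx4 was at 9.46 and 14.3, 94.8 and 66.3, and 22.5 and 16.8 RPKM in the same order (3.01 ± 0.37, adjusted p = 0.048). Ninj1, which ruptures the membrane after gasdermin pores form, was at 46.1 and 59.4, 202 and 182, and 89.8 and 90.9 RPKM (2.1 ± 0.27, adjusted p = 0.048). P2rx7 was named after its values were seen. In each of these 3 genes both F-H libraries were above the other 4, and F-H-L was nearer to F-L. These 3 calls, like those of Tnfrsf1b and Cd14 below, did not hold with median-ratio factors, with adipocyte scaling, with a replicate block or with the F-L and F-H libraries fitted alone. They held with DESeq2 and with no filter, which called 6035 and 6025 of all genes. They also held with limma on log2(RPKM + 0.1), which called 1040 of all genes. With limma on log2(RPKM + 1) all but P2rx7 held. Lower in F-H without passing the test were Naip1, with 2.46 and 0.108 RPKM in F-L and 0.053 and 0.476 RPKM in F-H, and Card9, with 16.5 and 2.71 against 4.72 and 4.27 RPKM. In both, F-L replicate 1 was far above F-L replicate 2, as it was for Pstpip1, at 30.4 and 3.87 RPKM in F-L, 26.7 and 15.7 RPKM in F-H, and 5.13 and 6.57 RPKM in F-H-L. The sensor gene Nlrp6 was at most 0.204 RPKM in F-L and F-H, and at 3.8 and 0.615 RPKM in F-H-L.

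Of the list of IL-1 family ligands and receptors, 10 of 15 found genes were tested, and 0 rose and 0 fell by edgeR in F-H against F-L, where 6 were higher at an unadjusted p under 0.05 and DESeq2 called 5 higher. Its median was 1.79, beside -0.12 over all genes. Of all genes, 12.5% were higher at that unadjusted p and DESeq2 called 9.84% higher. The smallest p belonged to Il1rl1, the receptor of IL-33, at 0.281 and 0.672 RPKM in F-L, 2.12 and 3.03 RPKM in F-H, and 1.07 and 0.922 RPKM in F-H-L (log2 fold change 2.68 ± 0.57, edgeR adjusted p = 0.0761). Next was Il18rap, a chain of the IL-18 receptor, at 0.146 and 0.157 RPKM in F-L and 1.94 and 0.482 RPKM in F-H. Il33 itself was at 12.3 and 5.09 RPKM in F-L, 3.72 and 5.94 RPKM in F-H, and 4.12 and 6.60 RPKM in F-H-L, and the groups overlapped. Sigirr, a negative regulator of this family, was at 7.96 and 2.97, 3.67 and 2.41, and 4.47 and 4.28 RPKM, and Il1rl2, the IL-36 receptor, at 0.675 and 0.765, 1.52 and 2.81, and 1.47 and 1.16 RPKM. Il18r1, the other IL-18 receptor chain, was at 3.56 RPKM in F-H replicate 1 and 0.387 to 0.651 RPKM elsewhere. The signalling receptor Il1r1 was at 3.57 and 5.81 RPKM in F-L, 7.01 and 8.80 RPKM in F-H, and 5.71 and 4.57 RPKM in F-H-L, well above its ligand Il1b per length in every library. The decoy receptor Il1r2 was at 0.0493 and 0.0524, 0.396 and 0.483, and 0.246 and 0.258 RPKM. Il1r1 and Il1r2 were chosen after their values were seen. The IL-36 and IL-38 genes Il1f5, Il1f6, Il1f8 and Il1f10 had at most 4 counts in any library.

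Of the IL-6 and TNF signalling list, 15 of 15 genes were tested, 1 rose and 0 fell by edgeR in F-H against F-L, and the median was 1.12. At an unadjusted p under 0.05, 11 of the 15 were higher, and DESeq2 called 9 higher, against 12.5% and 9.84% of all genes. The gene that rose was Tnfrsf1b, the TNF receptor of immune cells, at 4.92 and 5.04 RPKM in F-L, 71.1 and 39.1 RPKM in F-H, and 9.79 and 7.63 RPKM in F-H-L (log2 fold change 3.71 ± 0.42, edgeR adjusted p = 0.0447). Adam17, the protease that sheds TNF from the cell surface, was at 5.32 and 9.15, 42.1 and 24.5, and 11.6 and 8.47 RPKM (adjusted p = 0.0638). The other TNF receptor, Tnfrsf1a, was at 22.5 and 49.7, 98.6 and 94.7, and 78.6 and 82.8 RPKM, with F-H-L near F-H. The kinase Jak2 was at 9.3 and 5.54, 6.77 and 4.77, and 4.97 and 4.32 RPKM, with both F-H-L libraries below both F-L libraries on this scale. Birc3, an inhibitor of cell death, was at 18.3 and 8.65, 22.3 and 11, and 8.5 and 6.68 RPKM, with both F-H-L libraries below the other 4 by RPKM. RPKM uses no TMM factor, which was 1.16 in F-L replicate 2 and 0.968 in F-H-L replicate 1. By CPM, F-H-L replicate 1 is not below F-L replicate 2 in either gene. Of the NF-kB and priming list, 26 of 26 genes were tested, 1 rose and 0 fell, and the median was 1.18. Higher at an unadjusted p under 0.05 were 15 of the 26, and DESeq2 called 14 higher, against 12.5% and 9.84% of all genes. The gene that rose was Cd14, the lipopolysaccharide co-receptor, at 7.14 and 10.2 RPKM in F-L, 60.6 and 50.2 RPKM in F-H, and 12.6 and 11.5 RPKM in F-H-L (2.92 ± 0.30, adjusted p = 0.0447). Tlr2, a receptor of bacterial lipoproteins, was at 0.919 and 1.97, 20.2 and 10.9, and 3.10 and 1.89 RPKM (adjusted p = 0.0584). Nfkbib, an NF-kB inhibitor, was at 21.9 and 28.6 RPKM in F-L and 14.7 and 11.9 RPKM in F-H without passing. The kinase Irak1 was at 52.7 RPKM in F-L replicate 1 and 21.9 to 25.3 RPKM elsewhere, and Nfkb2, an NF-kB subunit, at 6.21 and 5.95, 20.3 and 13.9, and 9.51 and 8.88 RPKM.

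**Figure D5:**
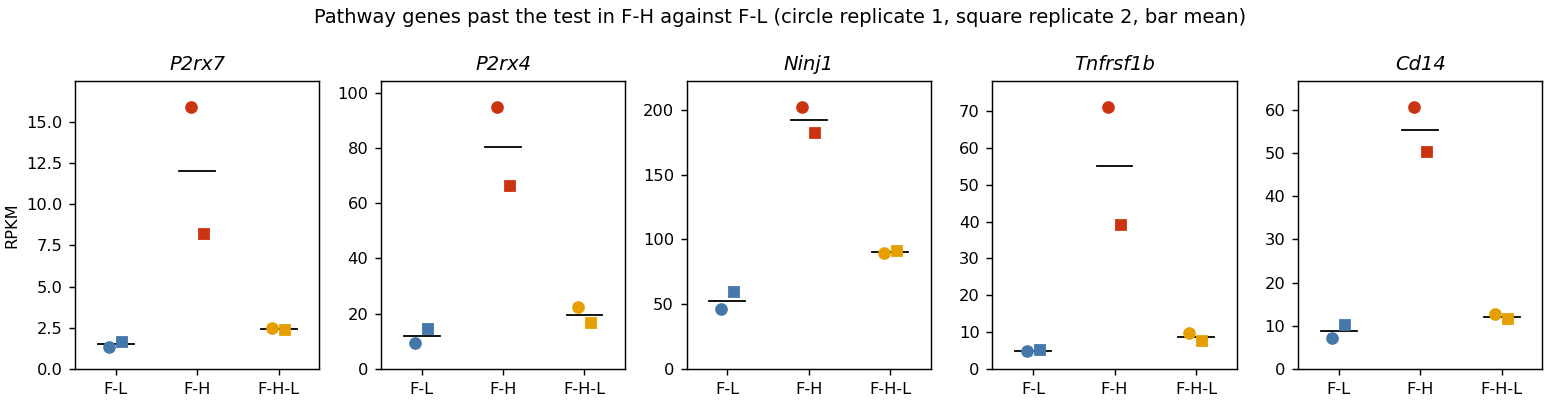
RPKM (y axis, from 0) of the 5 pathway genes that passed edgeR's test in F-H against F-L, in the 3 groups (x axis). Circles are replicate 1, squares replicate 2 and bars the mean. Cd14 was at 60.6 and 50.2 RPKM in F-H and at most 12.6 RPKM elsewhere.

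Of the list of other cytokines, 16 of 24 genes were tested, 0 rose and 0 fell by edgeR in F-H against F-L, 9 were higher at an unadjusted p under 0.05, and DESeq2 called 9 higher. The median was 1.84, beside -0.12 over all genes. Of all genes, 12.5% were higher at that unadjusted p and DESeq2 called 9.84% higher. Ebi3, a subunit of IL-27 and IL-35, was at 1.18 and 0.707 RPKM in F-L, 11.6 and 6.07 RPKM in F-H, and 1.53 and 1.43 RPKM in F-H-L (edgeR adjusted p = 0.0735). Tgfb1, which limits inflammation and drives matrix deposition, was at 23.1 and 13.9, 70.3 and 46.8, and 23.1 and 22.5 RPKM (log2 fold change 1.89 ± 0.40, adjusted p = 0.0759, and -0.28 with adipocyte scaling). The anti-inflammatory Il10 was at 0.112 and 0.127, 2.5 and 0.749, and 0.203 and 0.0695 RPKM. Il12b, a subunit of IL-12 and IL-23, was at 0.0291 and 0.0496, 3.71 and 0.476, and 0.493 and 0.281 RPKM, and Csf1, the macrophage growth factor, at 4.87 and 7.48, 12.4 and 14.1, and 9.93 and 7.7 RPKM. Il7, a lymphocyte growth factor, ran from 0.508 to 1.74 RPKM, highest in F-H-L replicate 2. Il17a, the hallmark cytokine of a T helper subset, had at most 1 count in any library and Csf2 at most 7. In the 5 lists together, edgeR called 0 genes in F-H-L against F-L and 0 in F-H-L against F-H. In F-H-L against F-H, the genes lower at an unadjusted p under 0.05 were 12 of 29 in the inflammasome list, 0 of 10 in the IL-1 family list, 4 of 15 in the IL-6 and TNF list, 9 of 26 in the NF-kB list and 3 of 16 among the other cytokines, against 5.68% of all genes. In the same order DESeq2 called 9, 0, 2, 4 and 2 lower, against 3.2% of all genes, and the list medians were -1.3, -0.72, -0.49, -0.89 and -1.59, beside 0.1 over all genes. In F-H-L against F-L, 10, 1, 3, 4 and 2 genes of the 5 lists were higher at an unadjusted p under 0.05, against 8.32% of all genes. DESeq2 called 3, 1, 0, 1 and 1 higher there, against 2.65% of all genes, and the medians were 1.04, 0.53, 0.71, 0.28 and 0.8, beside -0.09 over all genes. A different order was seen in Dfna5, the gene of gasdermin E, at 7.78 and 6.49 RPKM against 0.716 and 2.60 in F-L and 3.43 and 4.75 in F-H, and Irak2, a kinase of the IL-1 receptor pathway, at 19.3 and 20.1 RPKM against 8.76 and 11 in F-L and 15.5 and 15.9 in F-H. In these 2 genes both F-H-L libraries stood above both F-H libraries, as they did by RPKM in Nlrp6, Sigirr, Nfkbib and Il7. By CPM, 35.6% of all genes tested had that order.

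The genes whose log2 CPM over the 6 libraries was most like that of 3 members were sought among 14513 genes with a mean RPKM of at least 1. Libraries of a group share a diet, so the likeness is a description. Il1b was most like Alkbh8 (Pearson r = 0.975), Sec24a (0.967), Ipo7 (0.954), Fam110b (0.941) and Tnpo1 (0.938). Il18 was most like Gm2a (0.994), Tcrg-C2, Abi3 and Epsti1 (0.991 each) and Foxk1 (0.988). Tnf was most like Foxn2 and Il10ra (0.999 each), Gmip (0.998) and Crkl and Myo9b (0.997 each). No gene was named for more than 1 of the 3. The Tnf pattern was shared by Il10ra, the IL-10 receptor chain of leukocytes, at 2.24 and 2.66 RPKM in F-L, 42.6 and 16.5 RPKM in F-H, and 4.47 and 3.71 RPKM in F-H-L. All 5 genes named for Il1b were lowest in F-H-L replicate 2, as Il1b was. They spanned a narrow range, as Sec24a did with 2.33 to 3.93 RPKM.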

How the data were processed

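Messenger RNA of 6 libraries was measured. The deposited table holds raw counts per gene, per the file headers, and RPKM, which the authors computed from count, gene length (the Length column) and library total: in every library, RPKM recomputed from these columns matched the deposited value in 100% of genes above 50 counts (relative tolerance 1e-06). Per the submitters' processing notes the tools were bcl2fastq, HISAT2 2.1.0 and HTSeq, with build mm10; strand setting: not given in the sources used here. Of 48897 genes, 27 symbols that had become dates were restored by Entrez ID. Here counts were fitted in R 4.3.3 with edgeR 4.0.16 (filterByExpr, 22289 genes kept, TMM, quasi-likelihood test with 1 coefficient for each diet, all 6 libraries together, 3 residual degrees of freedom), and Benjamini-Hochberg p was called under 0.05. The SE is the log2 fold change over the square root of F. Alternatives were DESeq2 1.42.0, limma 3.58.1 on log2(RPKM + 1) and log2(RPKM + 0.1), median-ratio factors, scaling to 20 adipocyte genes, no filter, a replicate block, the groups of a comparison alone and each library left out. Members and lists were chosen with earlier results of these data known. Of each pathway list, up to 2 genes of the smallest p per direction and comparison, with a mean RPKM of at least 0.5, were named, besides genes said to be chosen after their values were seen. Likeness was searched for 3 members, Il1b, Il18 and Tnf. Promoters are RefSeq, GRCm38.p6, the same build as mm10. Figures used Python 3.11.15 and matplotlib 3.10.9.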

Additional observations from a re-analysis of the deposited data

How the results depend on the processing

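In F-H against F-L, edgeR called 193 genes (137 higher) and 0 of the 9 tested members. The counts were 0 genes with median-ratio factors, a replicate block or the 4 libraries alone, 3769 (91 higher) and 2 members with adipocyte scaling, 6025 (1968 higher) and 6 members with no filter, 6035 (2193 higher) and 5 members with DESeq2, 411 genes with limma on log2(RPKM + 1) and 1040 and 1 member with log2(RPKM + 0.1), and 0 to 5799 genes and 0 to 5 members with 1 library left out. In F-H-L against F-L, 0 genes and 0 members became 6155 and 1 with adipocyte scaling, 3910 and 2 with no filter, 2444 genes with DESeq2, and 0 to 3508 genes and 0 to 2 members with 1 library left out. In F-H-L against F-H, 0 and 0 became 16 genes with adipocyte scaling, 1759 and 3 with no filter, 1196 and 1 with DESeq2, 289 genes with the 4 libraries alone, and 0 to 828 genes and 0 to 1 member with 1 library left out. A fit with 1 library left out leaves 1 library in that group, with no spread of its own. Adipocyte scaling moved the median log2 fold change of all genes from -0.12 to -2.03, from -0.09 to -3.06 and from 0.1 to -0.92, and median-ratio factors moved the second to -0.21.

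Signs turned with adipocyte scaling in F-H against F-L for Il1a (-1.64), Il1b (-0.82), Pycard (-0.55) and Tgfb1 (-0.28), and in F-H-L against F-L for Il18 (-1.87), Nlrp3 (-1.29), Gsdmd (-1.55) and Tnf (-1.90). Il1a in F-H against F-L was -0.01 and -0.06 with limma and -0.41 to 0.64 with 1 library left out. In F-H-L against F-L, Il1b was -1.52 to 0.44 and Pycard -0.71 to 0.94 with 1 library left out. Relative to macrophage genes, 3 members were lower in F-H-L than in F-H, 1 with a pseudocount of 1, and 1 to 4 with 1 library left out, alternatives chosen after seeing the data. The causes were not tested.

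Deviations of libraries with equal replicate numbers correlated at 0.024, -0.138 and -0.019 across genes. With 2 libraries a group, these values cannot show whether the libraries were paired. Beside the 0 genes above, the replicate block turned Pycard in F-H-L against F-L to 0.12, and a crossed replicate block, added after seeing the data, to 0.13 with 0 genes called. The 5 pathway genes that rose in F-H did not pass with median-ratio factors, adipocyte scaling, the block or the 4 libraries alone. All 5 passed with DESeq2, no filter and limma on log2(RPKM + 0.1), and all but P2rx7 with log2(RPKM + 1). At this depth Il6 and Il1a lie near the counting floor.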
